A study of Mus musculus with 6 samples.

Results

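In mouse back skin, 10 glutathione transferase genes outside the alpha and mu classes were followed: Gstp1 of the pi class, Gstt1, Gstt2 and Gstt3 of the theta class, Gsto1 (omega), Gstz1 (zeta), Gstk1 (kappa), and the microsomal Mgst1, Mgst2 and Mgst3. They were taken by symbol, as every probe set of a 3-prime expression array whose annotation gives exactly 1 of these symbols. All 10 genes were found, on 13 of 34945 probe sets with 1 symbol, and they are 10 of the 18193 genes tested. Each of 6 arrays holds the RNA of 1 animal; all were females from a single litter, aged postnatal day 2.5, on a mixed FVB/N and C57BL/6 background, and whole skin of the back was taken. The 3 mice labelled K5cre-caNrf2 (tg/tg) carry a constitutively active Nrf2 (caNrf2) together with Cre recombinase under the keratin 5 promoter (K5cre). The label of the 3 controls, K5cre-wt (tg/wt), is taken to mean Cre without caNrf2, so that Cre is common to both groups. This promoter is active in basal keratinocytes, whereas the RNA came from all cells of the skin. The sample descriptions of both groups also hold the word weak, which the labels do not explain.

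Glutathione transferases join the tripeptide glutathione to reactive, electrophilic compounds, or use it to reduce or rearrange them. The soluble classes are distinct enzymes with a common fold, the kappa enzyme sits in mitochondria and peroxisomes, and the microsomal ones are unrelated membrane proteins of the MAPEG family, which also makes leukotriene and prostaglandin mediators. Nrf2 is a transcription factor that binds antioxidant response elements with a small Maf partner and raises many genes of glutathione synthesis and conjugation. The comparison asks which of these less often described transferases differ in skin whose keratinocytes carry an always active Nrf2.

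Gstp1, Gsto1 and Mgst2 rose in caNrf2 skin, and none of the 10 genes fell. The rises were 1.46-fold for Gstp1, 1.55-fold for Gsto1 and 1.48-fold for Mgst2 (limma across all genes, Benjamini-Hochberg adjusted p under 0.05). Over all 18193 genes, 68 passed (0.374%), of which 63 rose (0.346%) and 5 fell (0.0275%). The median log2 difference was -0.03 over the 10 members and -0.01 over all genes, so the 3 risen genes stand beside 7 with fitted values on both sides of 0. At an unadjusted p under 0.05 there were 4 members, the 3 risen ones and Gstk1, beside 1471 of 18193 genes (8.09%). Of the 7 that did not pass, Mgst1 was fitted above 0 and Gstt1, Gstt2, Gstt3, Gstz1, Gstk1 and Mgst3 below 0. The groups did not overlap for 4 members that were higher in caNrf2 skin (Gstp1, Gsto1, Mgst1 and Mgst2) and for 1 that was lower (Gstk1), where 6.23% and 6.88% of all genes separate in these directions.

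**Figure D1:**
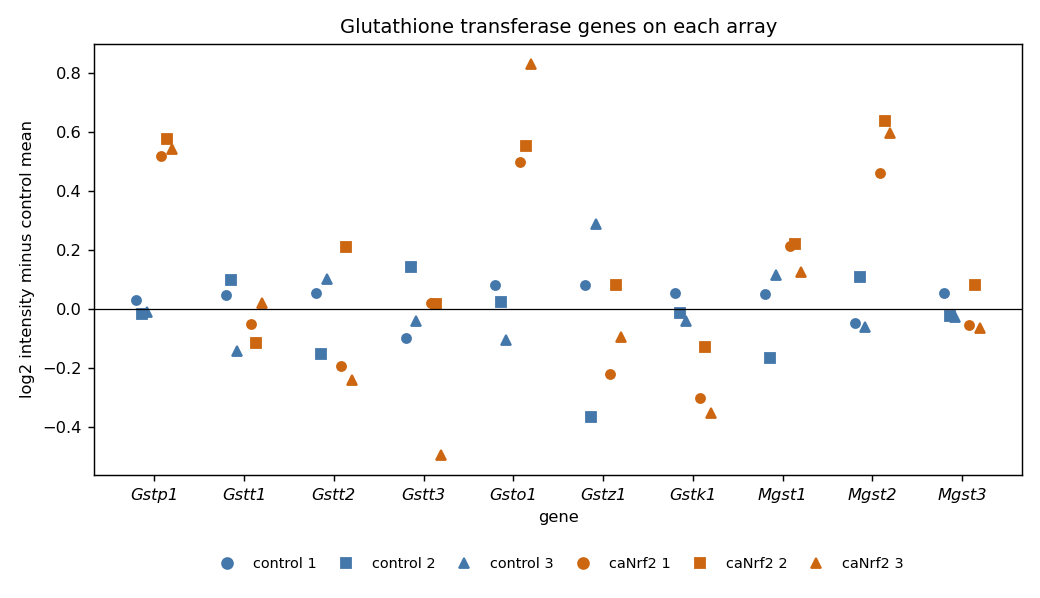
Log2 intensity of each gene on each of the 6 arrays, minus the mean of the 3 control arrays; circles, squares and triangles are replicates 1, 2 and 3, blue for control and orange for caNrf2. The orange points of Gstp1, Gsto1 and Mgst2 lie between 0.46 and 0.83, all above the blue points, and the colours overlap in the theta genes, Gstz1 and Mgst3.

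The promoter windows of the 3 risen genes and of Mgst1, the only other member with a motif match, are shown because Nrf2 acts through DNA sites near its targets. They run from 250 bases before to 50 bases after an annotated transcript start, 5′ to 3′ on the strand of the gene, from RefSeq on GRCm38.p6. Matches to the motifs searched are in capitals.
Gstp1, chr19:4037863-4038162, minus strand: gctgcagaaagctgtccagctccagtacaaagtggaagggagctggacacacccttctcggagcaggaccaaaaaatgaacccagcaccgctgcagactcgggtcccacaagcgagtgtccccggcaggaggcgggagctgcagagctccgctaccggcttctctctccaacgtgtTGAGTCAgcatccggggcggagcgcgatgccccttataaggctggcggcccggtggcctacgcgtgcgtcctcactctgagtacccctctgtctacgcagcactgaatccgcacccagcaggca
Mgst2, chr3:51660929-51661228, plus strand: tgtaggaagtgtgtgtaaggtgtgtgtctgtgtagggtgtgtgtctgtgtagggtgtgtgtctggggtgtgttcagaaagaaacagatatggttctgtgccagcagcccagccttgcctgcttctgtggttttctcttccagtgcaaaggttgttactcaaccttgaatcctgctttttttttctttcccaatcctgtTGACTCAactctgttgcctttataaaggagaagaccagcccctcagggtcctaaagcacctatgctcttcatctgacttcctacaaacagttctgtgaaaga
Gsto1, chr19:47854723-47855022, plus strand: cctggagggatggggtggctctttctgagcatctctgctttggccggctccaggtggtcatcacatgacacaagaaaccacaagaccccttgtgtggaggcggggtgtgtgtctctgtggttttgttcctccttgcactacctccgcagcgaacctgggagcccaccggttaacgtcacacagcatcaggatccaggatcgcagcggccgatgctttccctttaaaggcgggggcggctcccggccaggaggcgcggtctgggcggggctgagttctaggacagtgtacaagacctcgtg
Mgst1, chr6:138140277-138140576, plus strand: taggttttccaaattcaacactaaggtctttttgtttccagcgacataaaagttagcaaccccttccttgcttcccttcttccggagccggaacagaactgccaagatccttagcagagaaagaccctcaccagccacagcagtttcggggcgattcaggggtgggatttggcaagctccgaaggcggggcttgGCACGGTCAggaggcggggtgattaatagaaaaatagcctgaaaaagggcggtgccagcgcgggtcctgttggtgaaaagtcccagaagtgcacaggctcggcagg
Both strands were searched for the core of the antioxidant response element, TGACNNNGC, and for the AP-1 site, TGANTCA, a palindromic pattern that is counted once and can overlap the core. The Gstp1 window holds an AP-1 match, TGAGTCA, that begins 74 bases before the start. Together with the bases gc that follow, it reads TGAGTCAGC, which has the letters of the element core except G in place of C after TGA. The core was searched only with C at that place, so variants such as this were not counted as matches in any window. The Mgst2 window holds TGACTCA, beginning 52 bases before a start that lies well inside the annotated span of the gene. The Gsto1 window held neither pattern. In the Mgst1 window the element core stands on the opposite strand and begins 56 bases before the start. Windows were found for 9 of the 10 members, 12 windows in all, and the other windows of members had no match. Of 32851 windows of 300 bases in the same table, 12.4% held the element core and 7.81% the AP-1 pattern. A match describes letters, and binding was not measured.

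Genes that check the genotype come first. Nfe2l2, which encodes Nrf2, read 657, 674 and 683 intensity units on control arrays 1 to 3 and 964, 860 and 864 on caNrf2 arrays 1 to 3. Its difference of 0.41 ± 0.07 on the log2 scale (fit estimate ± SE) had an adjusted p of 0.0539, and whether its probes see the transgene was not analysed here. The Nrf2 inhibitor Keap1 differed by 0.28 ± 0.08 (adjusted p = 0.329). Nqo1, a quinone reductase that is a standard target of Nrf2, rose 12.2-fold (95% interval 9.97 to 14.8). Krt5, Krt10 and Col1a1, markers of basal and suprabasal keratinocytes and of dermal fibroblasts, had mean log2 levels of 13.48, 14.29 and 13.78, and none of them passed the test. The array medians ran from 80.9 to 82.1 units, and the upper quartile from 331 to 333 on control and from 332.5 to 344.5 on caNrf2 arrays.

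Gstp1, the pi-class enzyme and a main soluble transferase of many epithelia, had the smallest spread within each group among the 10 genes. Its probe set read 3798, 3677 and 3693 intensity units on the control arrays and 5332, 5546 and 5429 on the caNrf2 arrays. Every caNrf2 array lay above every control array, with a wide gap between 3798 and 5332: log2 intensities were 11.86 ± 0.03 (control) and 12.41 ± 0.03 (caNrf2), as mean ± SD with n = 3. The log2 difference was 0.55 ± 0.07 (SE), a 1.46-fold level with a 95% interval of 1.32 to 1.62 (limma, adjusted p = 0.00459). Gstp1 ranked 34 of 18193 genes by p. It kept its call in all 14 alternative fits, including each of the 6 in which an array was left out, where adjusted p ran from 0.0115 to 0.0446. The probe set is of a kind designed for several transcripts of a gene, and mice have a close copy, Gstp2, with no probe set of its own among those with 1 symbol, so signal from the copy cannot be told apart. Gstp3, a further pi-class gene, differed by 0.02 ± 0.12 on a dim probe set (adjusted p = 0.987).

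Gsto1, the omega-class enzyme, which acts as a thiol transferase and reduces dehydroascorbate rather than conjugating typical transferase substrates, was measured by a pair of probe sets that moved alike. The brighter, used for the gene, read 2111, 2029 and 1855 units in control and 2817, 2926 and 3555 in caNrf2 skin. Here caNrf2 array 3 stood above the other two, and the groups did not overlap. The log2 difference was 0.63 ± 0.10 (SE), 1.55-fold with a 95% interval of 1.33 to 1.80 (limma, adjusted p = 0.0268). The second probe set read 1925, 1821 and 1684 units in control and 2504, 2981 and 3425 in caNrf2 skin. In the fit of all 45037 probe sets, in which 102 (0.226%) rose, it differed by 0.70 ± 0.11 (adjusted p = 0.0308) and the brighter by 0.63 ± 0.10 (adjusted p = 0.0330). The brighter probe set is of a kind that may bind related transcripts, while the second is of the gene-specific kind. The call was lost without control array 1, 2 or 3 or caNrf2 array 2. Adjusted p was then 0.0861, 0.120, 0.146 and 0.0928, while the log2 difference stayed between 0.57 and 0.67. Without caNrf2 array 3, the highest, the difference was 0.52 and the call stayed (limma, adjusted p = 0.0468). Its relative Gsto2 was dim, with a mean log2 level of 3.66, near the 3.02 to 3.74 of 3 Y-linked genes that are silent in females, and differed by -0.02 ± 0.10 (adjusted p = 0.980).

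Mgst2, a microsomal enzyme that conjugates leukotriene A4 as well as foreign compounds, was the third risen gene. It read 489, 545 and 484 units on the control arrays and 695, 787 and 765 on the caNrf2 arrays. The lowest caNrf2 value stood above the highest control value, and both groups had an SD of 0.09 on the log2 scale. The log2 difference was 0.57 ± 0.08 (SE), 1.48-fold with a 95% interval of 1.31 to 1.68 (limma, adjusted p = 0.0138). The call was lost without control array 1 or 3 or caNrf2 array 2 or 3, with adjusted p of 0.111, 0.0993, 0.0851 and 0.0536, while the log2 difference stayed between 0.53 and 0.62. The enzyme that makes leukotriene C4 in leukocytes, Ltc4s, is of the same family and differed by -0.16 ± 0.07 (adjusted p = 0.643).

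**Figure D2:**
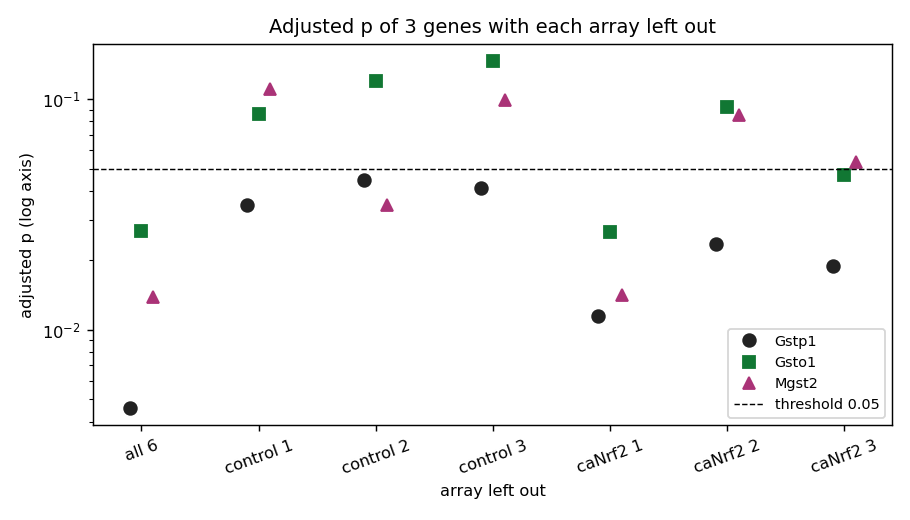
Adjusted p (log axis) of Gstp1, Gsto1 and Mgst2 from all 6 arrays and with each array left out in turn; the dashed line is the threshold of 0.05. Gstp1 stays below the line throughout, Gsto1 is above it in 4 of 6 such fits and Mgst2 in 4 of 6.

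The other microsomal genes did not pass. Mgst1, an abundant membrane transferase and peroxidase of the endoplasmic reticulum and outer mitochondrial membrane, read 6414, 5519 and 6708 units in control and 7186, 7218 and 6750 in caNrf2 skin. All caNrf2 values were above all control values, but the nearest, 6708 and 6750, were almost equal. The log2 difference was 0.19 ± 0.09 (adjusted p = 0.631), with a 95% interval of 0.996 to 1.30-fold. A second Mgst1 probe set read 11.7 to 16.4 units over all 6 arrays, at the level of silent genes, and differed by 0.01 ± 0.12 (adjusted p = 0.991 over all probe sets). Mgst3, which acts on lipid hydroperoxides, read 2617, 2477 and 2472 units in control and 2425, 2669 and 2411 in caNrf2 skin. The groups overlapped, and the log2 difference was -0.01 ± 0.07 (adjusted p = 0.986), with a 95% interval of 0.885 to 1.11-fold. Its dim second probe set read 28.0 to 31.6 units in control and 21.5 to 28.1 in caNrf2 skin, a log2 difference of -0.30 ± 0.10 (adjusted p = 0.440 over all probe sets).

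Theta-class genes encode enzymes that act on small halogenated compounds and sulfate esters, and all 3 overlapped between the groups. Gstt1 read 141, 147 and 124 units in control and 132, 126 and 139 in caNrf2 skin, a log2 difference of -0.05 ± 0.08 (adjusted p = 0.922; 95% interval 0.849 to 1.10-fold). Gstt2 read 50.5, 43.7 and 52.2 units in control and 42.6, 56.3 and 41.2 in caNrf2 skin, a log2 difference of -0.07 ± 0.12 (adjusted p = 0.920). Gstt3 read 36.9, 43.6 and 38.4 units in control and 40.0, 40.0 and 28.0 in caNrf2 skin, a log2 difference of -0.15 ± 0.13 (adjusted p = 0.826), with caNrf2 array 3 alone below the controls. Gstt2 and Gstt3 had mean log2 levels of 5.57 and 5.23, below the 6.34 of the median probe set, and their 95% intervals were wider, 0.788 to 1.14-fold and 0.731 to 1.10-fold. In the order of genes along the chromosome (GRCm38.p6) the theta genes stand together. Of 11 other measured genes within that stretch and the 5 on either side of it, none passed the test (limma; 0 at an unadjusted p under 0.05), with log2 differences of -0.22 to 0.18. That stretch includes the theta-class gene Gstt4, at 0.18 ± 0.08 (adjusted p = 0.637) on a dim probe set.

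Gstz1, the zeta-class enzyme, also known as maleylacetoacetate isomerase of tyrosine breakdown, varied most within the controls. It read 604, 443 and 698 units there and 490, 604 and 534 in caNrf2 skin, so that the caNrf2 values all fell inside the control range. The log2 difference was -0.08 ± 0.15 (adjusted p = 0.934; 95% interval 0.753 to 1.19-fold). None of the 6 other tyrosine breakdown genes that were measured passed (limma; also 0 at an unadjusted p under 0.05), and the smallest p was that of Fah, the enzyme after Gstz1, at -0.12 ± 0.09 (adjusted p = 0.787).

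Gstk1, the kappa-class enzyme of mitochondria and peroxisomes, was the member with the lowest fitted difference. It read 525, 501 and 492 units in control and 410, 462 and 396 in caNrf2 skin. Every caNrf2 value lay below every control value, but the log2 difference of -0.26 ± 0.08 did not pass over all genes (limma, adjusted p = 0.379), and it stayed uncalled in all 14 alternative fits, with adjusted p of 0.133 to 0.839. The fitted level was 0.833 of control with a 95% interval of 0.737 to 0.942.

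**Figure D3:**
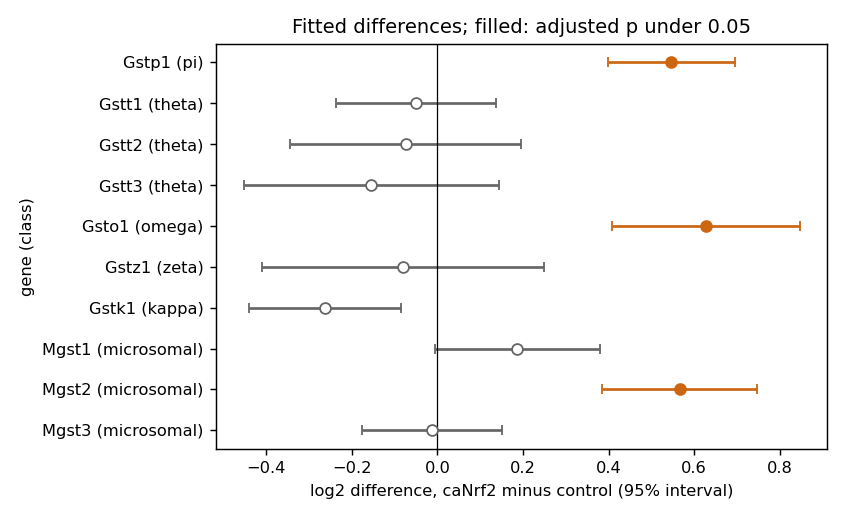
Fitted log2 difference (caNrf2 minus control) of each of the 10 genes with its 95% interval from limma; filled orange points have an adjusted p under 0.05. The intervals of Gstp1, Gsto1 and Mgst2 begin at 0.40, 0.41 and 0.39, that of Gstk1 lies below 0 although its adjusted p is 0.379, and the other 6 include 0.

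Whether genes of the same class responded differently was tested on the within-array difference of their log2 values. There were 6 such pairs, and with 3 arrays against 3 an exact permutation test cannot go below p = 0.1, so it could call no pair whatever the values; the sizes are given as a description. Mgst2 exceeded Mgst3 in its response by 0.58, with no overlap of the groups (exact two-sided permutation p = 0.1, adjusted over the 6 pairs 0.4). Mgst2 exceeded Mgst1 by 0.38 (exact p = 0.2, adjusted 0.4), and Mgst1 exceeded Mgst3 by 0.20 (exact p = 0.2, adjusted 0.4). Within the theta class the fitted gaps were 0.02 for Gstt1 over Gstt2, 0.10 for Gstt1 over Gstt3 and 0.08 for Gstt2 over Gstt3 (exact p = 0.9, 0.9 and 0.5, adjusted 0.9, 0.9 and 0.75).

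The rest of glutathione conjugation was read from lists of known genes. Of 6 listed alpha-class transferases 3 were measured, and all 3 rose, Gsta4 by 4.26-fold and Gsta2 by 1.64-fold. Gsta3 differed most, but its size is uncertain: the log2 difference was 5.04 on the probe set used, where the control level of 4.12 is close to that of silent genes, and 3.54 with the mean of all its probe sets. Of 7 mu-class genes 4 rose, Gstm1 by 3.16-fold, Gstm6 by 2.70-fold, Gstm3 by 1.49-fold and Gstm2 by 1.40-fold, and mu-class probe sets can bind related transcripts. The median log2 difference was 2.09 in the alpha and 0.48 in the mu list, beside -0.03 over the members and -0.01 over all genes. The gap between the classes was not tested. Gstm3 lost its call without control array 2 (adjusted p = 0.0507), and Gstm2 lost it without any 1 array but caNrf2 1 (adjusted p of 0.0989 to 0.194). Among 18 measured relatives that hold a transferase fold or belong to the MAPEG family, such as the chloride channel proteins Clic1 and Clic4 and the prostaglandin synthase Ptges, none passed (limma; also 0 at an unadjusted p under 0.05), and the values ran from -0.16 to 0.18.

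Among 11 measured genes that supply glutathione, 5 passed, all of them higher, and the list median was 0.68 (log2). Pgd, which yields NADPH in the pentose phosphate pathway, rose 1.92-fold, and the subunits of glutamate-cysteine ligase, Gclm and Gclc, rose 2.16-fold and 2.01-fold. Glutathione synthetase, Gss, rose 1.81-fold, and glutathione reductase, Gsr, rose by 0.68 on the log2 scale. Of 15 measured genes of the later steps only the conjugate exporters Abcc3 (3.64-fold) and Abcc4 (2.82-fold) rose, with a median of -0.04. No gene of glutamyl transfer, dipeptide cleavage or N-acetylation passed.

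**Figure D4:**
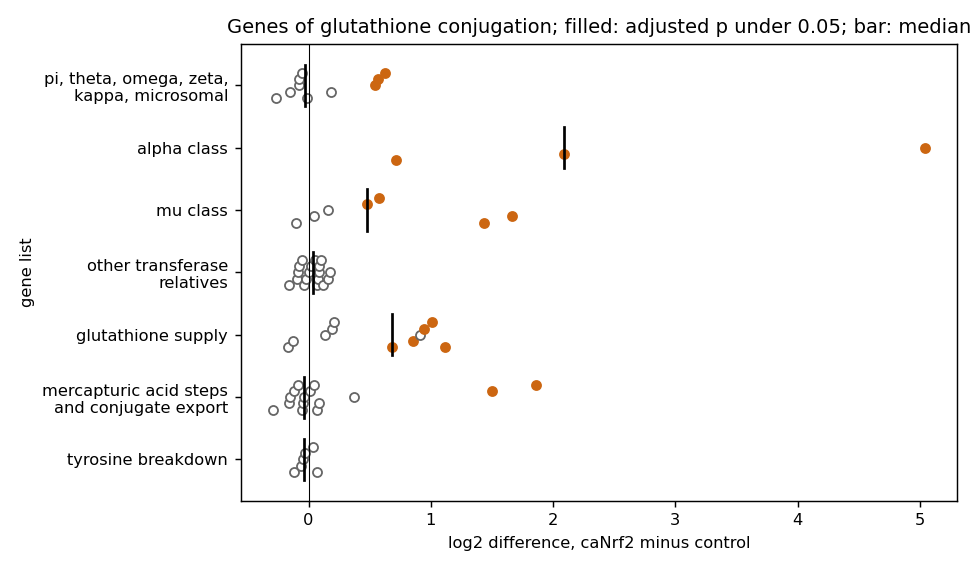
Log2 difference (caNrf2 minus control) of each measured gene, by list; filled orange points have an adjusted p under 0.05 and the black bar is the list median. The top list holds 3 filled points near 0.6 and 7 open ones around 0, while the alpha list reaches 5.04.

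The array-by-array pattern of each risen member was set beside that of all genes at or above the median level, by Pearson correlation of log2 values over the 6 arrays, which share the group difference. For Gstp1 the 3 closest were Nqo1, Pgd and Il1f9 (interleukin 36 gamma), each at r = 0.998, with rises of 12.2-fold, 1.92-fold and 1.95-fold. Gsto1 stood closest to Gtf2f2 (r = 0.998), Tmem167b (0.981) and Cfl1 (0.981), which differed by 0.22, 0.20 and 0.05 and did not pass. Mgst2 stood closest to Ugdh (r = 0.996), a dehydrogenase that makes UDP-glucuronic acid, Msl1 (0.996) and Arrdc4 (0.991), which differed by 0.21, 0.13 and 0.51. Of these 3, Arrdc4 came nearest the threshold (adjusted p = 0.0529) and passed in 6 alternative fits.

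In whole skin, fewer cells of a type and less RNA per cell cannot be told apart, so markers were read beside these genes. None of 7 basal and 7 suprabasal keratinocyte markers passed, and their summed intensities overlapped: 35751 to 36954 units in control and 36452 to 38589 in caNrf2 skin for the basal list, and 86515 to 89135 and 88275 to 92823 for the suprabasal list. All 7 basal and all 7 suprabasal markers were fitted above 0, as were 8582 of all 18193 genes. Their log2 differences were small, with medians of 0.05 and 0.04 and highest values of 0.12 and 0.11. The 2 lists are bright, with mean log2 levels of 11.68 and 13.25 beside 7.40 over all genes. The upper quartile of all values was also higher on caNrf2 arrays 2 and 3 (344.5 and 342 units) than on control arrays (331 to 333). How far this offset enters the marker values was not tested. All 6 measured adipocyte markers were fitted below 0, with a median of -0.10. Of 5 measured sebaceous gland markers 1 fell, the desaturase Scd3, by 0.81 ± 0.13 on the log2 scale (adjusted p = 0.0294). A second, the elongase Elovl3, differed by -0.37 ± 0.12 without overlap (adjusted p = 0.442), so that 2 of the 5 had an unadjusted p under 0.05, and 4 of the 5 were fitted below 0. The summed sebaceous intensities were 6401 to 6722 units in control and 5298 to 6518 in caNrf2 skin. No marker passed in the lists of adipocytes (6 measured), dermal fibroblasts (6), skeletal muscle (6), mast cells (6), macrophages and dendritic cells (6), erythroid cells (4), endothelium (6) or hepatocytes (5). At an unadjusted p under 0.05, where 8.09% of all genes lie, these lists held 2 of 45 genes, 1 of macrophages and dendritic cells and 1 of endothelium, and both keratinocyte lists held 0. The part of any cell type in the differences of the 10 genes was not tested.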

How the data were processed

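RNA of whole back skin from 3 control and 3 caNrf2 mice was measured. Each mouse had an array of its own. The frozen skin gave total RNA, of which 2 µg was labelled with biotin as cRNA, per the labels' protocols. The deposited intensity values are on a linear scale and were made with RMA, per the submitters' processing notes. RMA is meant to equalise array distributions, which hides a shift common to most genes, and makes the folds of dim genes smaller. The deposited values were not fully equal: the upper quartile was 344.5 and 342 units on caNrf2 arrays 2 and 3, and 331 to 333 on control arrays. The scanner files were not used here.

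Intensities were converted to log2. Of 45101 probe sets, 64 controls were left out. Of the remaining 45037, 34945 have 1 symbol, 932 several and 9160 none. The brightest probe set stands for a gene. The test was limma 3.58.1 (lmFit, eBayes; R 4.3.3) with 4 residual degrees of freedom, and p-values were adjusted by Benjamini-Hochberg over 18193 genes, with a threshold of 0.05. The fit was tested on simulated data. Replicates were separate mice. Pairs of genes were compared by exact permutation (scipy 1.17.1). Replicate numbers were not used to pair the arrays in the main fit. The number of arrays limits the precision.

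The members and the lists were chosen with earlier results of these data known. Named genes were the members, Nfe2l2, Keap1, Nqo1, up to 4 called genes of each list with the smallest p (otherwise the 1 with the smallest p), and the 3 genes most like each called member. Gstp3, Gsto2, Ltc4s, Gsr, Clic1, Clic4, Ptges and the markers Krt5, Krt10, Col1a1 and Scd3 were added later as context. Alternatives were a replicate block, further quantile or cyclic loess normalisation, a floor of 6 on the mean log2 value, the mean of all probe sets, all probe sets each for itself, an intensity trend, array weights and leaving out each array.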

Additional observations from a re-analysis of the deposited data

How the results depend on the processing

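The number of called genes was 68 and ran from 41 to 89 when 1 array was left out (41, 43 and 45 without control arrays 1, 2 and 3), and from 59 to 94 in the other fits. The number of members called was 3 and ran from 1 to 3 with an array left out: it was 1, Gstp1, without control array 1 or 3 or caNrf2 array 2. Further quantile normalisation shifted the all-gene median by -0.011 and cyclic loess by -0.0065, and both left Gstp1, Gsto1 and Mgst2 called. Their log2 differences were 0.52, 0.59 and 0.53 after the quantile step, below the 0.55, 0.63 and 0.57 of the main fit. The replicate numbers give no sign of pairing, since deviations of same-numbered arrays correlated at -0.20, -0.03 and 0.04. With the replicate block 61 genes and 2 members were called, Gstp1 (adjusted p = 0.0220) and Mgst2 (0.0201), while Gsto1 had 0.0515 and Gstm2 0.0763. Genes with small fitted values changed sign with an array left out: Gstt2 ran from -0.22 to 0.0084, Gstt3 from -0.24 to 0.018, Gstz1 from -0.26 to 0.064 and Mgst3 from -0.060 to 0.014. The gap of Gstt1 over Gstt2 ran from -0.098 to 0.20 and was -0.019 with further quantile or cyclic loess normalisation. That of Gstt1 over Gstt3 ran from -0.10 to 0.22, and that of Gstt2 over Gstt3 from -0.069 to 0.23. Nfe2l2 passed with the floor on dim genes (0.0273), the intensity trend (0.0171) and array weights (0.0318). The floor removed Gstt2 and Gstt3, which then have no value. The cause of these changes was not tested.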
